A study of Mus musculus with 9 samples.

Results

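The genes described here encode the proteins of the cytosolic and the mitochondrial ribosome, and their messages were quantified by RNA-seq in CD8+ T cells of the mouse. They were chosen by gene symbol alone, without use of any expression value. A gene was taken into the cytosolic set where its symbol began with Rpl or Rps and a digit, or was Rplp0, Rplp1, Rplp2 or Rpsa, and into the mitochondrial set where it began with Mrpl or Mrps and a digit. Symbols holding -ps and the Rps6k kinases were left out. The rule found 165 of the 24391 listed genes, 88 cytosolic (53 large subunit, 35 small subunit) and 77 mitochondrial (48 large, 29 small), with the subunit read from the symbol.

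CD8+ T cells were activated in culture for 72 h in medium with interleukin 2 at 100 U/mL. The 5 libraries called NT came from cells that were not treated, and the 4 called LSD1i from cells that had an LSD1 inhibitor in the medium during activation. LSD1 is a histone demethylase of corepressor complexes, and neither the inhibitor's name nor its dose is stated in the labels. Nor do the labels state that replicates are separate animals or cultures, and p-values therefore measure only how these libraries scatter, which may be technical.

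The cytosolic ribosome reads the messages of nuclear genes, and the mitochondrial ribosome, which descends from a bacterial one, makes the few proteins that the mitochondrial genome encodes, all of them subunits of the respiratory chain and ATP synthase. Activated T cells enlarge and divide quickly and build many new ribosomes while doing so. Messages of cytosolic ribosomal proteins commonly start within a run of pyrimidines, through which mTOR signalling controls their translation, so their RNA level and their protein output can differ.

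The labels were checked before any comparison. The deposited raw and batch-corrected tables hold the same 9 libraries, but 4 names are crossed between them: replicates 1 and 2 of NT in the raw table are replicates 1 and 2 of LSD1i in the batch-corrected one, and the reverse. Nothing in the labels settles which table is right. All directions given here follow the batch-corrected names. The labels do not state the batches. Replicates 1 and 2 were treated as 1 batch and replicates 3 to 5 as another, a split read from the data. Total counts ran from 15003800 to 27215500 after the authors' correction. Rn45s, the precursor of ribosomal RNA, made up 6.92% of the batch-corrected counts of NT 1 and 1.69% to 4.09% of those of the other 8 libraries. In raw counts under the batch-corrected names, it made up 13.3% in NT 1 and 1.66% to 2.87% in the other 8. Levels are given as CPM, which are counts scaled to a common library size with edgeR's TMM factors. All 7 CD8 T cell markers found in the table were tested, with a summed level of 1732 to 1919 CPM in NT and 1963 to 2011 CPM in LSD1i. Cd8a was higher in LSD1i, but the markers did not all move alike. Of the 7, 5 had a log2 fold change above 0, over a range from -0.33 to 0.38. The summed B cell markers were at 11.1 to 12.4 CPM in NT and 8.12 to 9.38 CPM in LSD1i, without overlap, and Cd79b, the only one tested, was called lower (log2 fold change -0.43, edgeR adjusted p 0.0317). The NK markers, with Ncr1 at 0 in every library, were at 1.00 to 13.1 CPM in NT and 0.702 to 1.94 CPM in LSD1i, and the myeloid (S100a8 and S100a9 at 0) and erythroid (Hbb-b1 and Hba-a1 at 0) markers at no more than 0.572 and 0.671 CPM. The summed CD4 T cell markers were at 28.4 to 46.5 CPM in NT and 39.4 to 46.9 CPM in LSD1i, of which Cd40lg, which activated CD8+ cells can also express, was called higher. Their part in the values below was not tested.

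No ribosomal protein gene passed the test between LSD1i and NT. The test was edgeR's quasi-likelihood test with Benjamini-Hochberg adjustment over all 11981 genes that passed the low-count filter, which 84 of the 88 cytosolic and all 77 mitochondrial genes did. It called 0 of these 161 genes at an adjusted p of 0.05, where 3.31% of all tested genes were called. At an unadjusted p of 0.05 it passed 3 genes, Rps29, Mrps2 and Mrpl23, where 14.6% of all tested genes passed. For 0 of the 161 genes did the CPM ranges of the groups fail to overlap, where 7.86% of all tested genes had ranges that did not overlap. DESeq2 called 0 genes of either set, where it called 399 higher and 250 lower of 20052 genes with a fold change. On raw counts with the batch as a term, edgeR also called 0 genes of either set, where 1.85% of 11916 tested genes were called. In the authors' deposited table, 87 cytosolic and 77 mitochondrial genes are listed, all marked as not significant, with smallest FDR values of 0.299 for Rps29 and 0.231 for Mrps2.

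The precision was high enough to bound most of these differences. The standard error of the log2 fold change had a median of 0.11 in the cytosolic and 0.12 in the mitochondrial set, against 0.13 over all tested genes. The 95% confidence interval lay within a 1.5-fold change in either direction for 78 of 84 cytosolic and 74 of 77 mitochondrial genes. It lay within a 2-fold change for 83 and 77. These intervals cover the spread between libraries as named in the batch-corrected table, without a charge for the authors' batch correction.

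The medians of the 2 sets had opposite signs, both small. The log2 fold change of LSD1i over NT was above 0 for 75 of 84 cytosolic genes, with a median of 0.10 and a range from -0.16 to 0.43. It was above 0 for 32 of 77 mitochondrial genes, with a median of -0.03 and a range from -0.36 to 0.20. Over all 11981 tested genes 45.6% were above 0 and the median was -0.02. Both cytosolic subunits were alike in this, with a median of 0.09 and 44 of 50 genes above 0 for the large subunit and a median of 0.13 and 31 of 34 for the small one. In the mitochondrial ribosome, 21 of 48 large subunit genes (median -0.01) and 11 of 29 small subunit genes (median -0.04) were above 0. These counts describe genes that vary together over libraries, so they are not independent observations. The mean log2 fold change of the cytosolic set exceeded that of the mitochondrial set by 0.13.

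**Figure D1:**
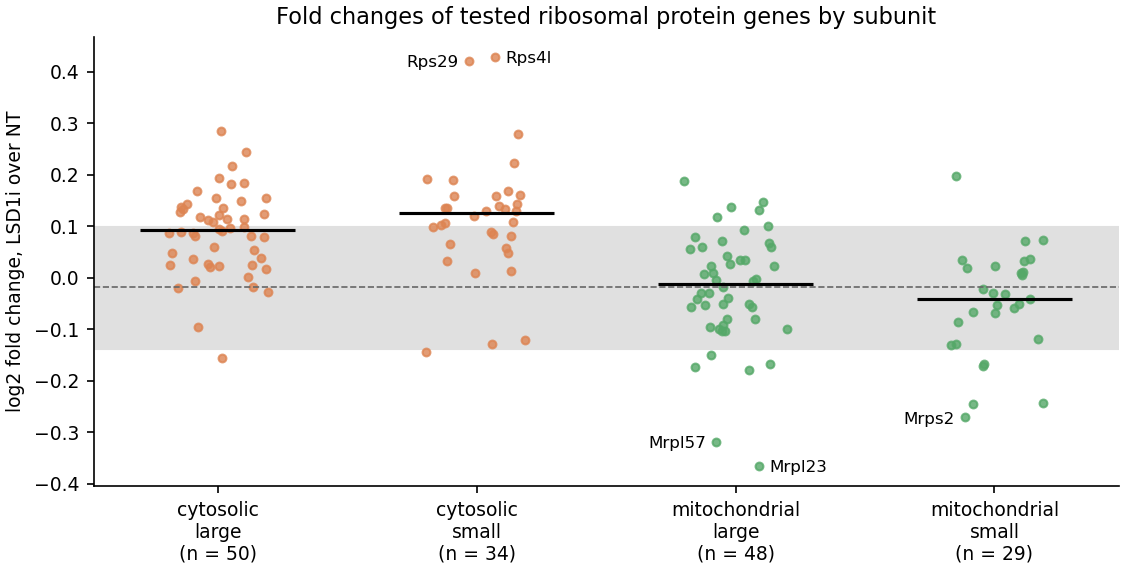
Log2 fold change of LSD1i over NT (y axis) for each tested ribosomal protein gene, 1 point a gene, by subunit (x axis), with the group median as a black line; the dashed line and grey band are the median and the middle range between quartiles of all 11981 tested genes. Most cytosolic genes lie above 0 with medians of 0.09 and 0.13, the mitochondrial medians are -0.01 and -0.04, and no point passed the adjusted test.

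Summed over the set, cytosolic ribosomal protein genes stood at 88282, 99354.5, 108508, 104778 and 78842.5 CPM in NT 1 to NT 5. In LSD1i 1 to LSD1i 4 the sums were 98621.6, 110825, 99208.2 and 100331 CPM. The groups overlapped: the lowest 2 libraries, NT 5 and NT 1, were NT libraries, but NT 3 and NT 4 exceeded every LSD1i library except LSD1i 2. The means were 95953 ± 12234 (SD, n = 5) in NT and 102246 ± 5763 (SD, n = 4) in LSD1i, a difference of 6293 CPM that is smaller than the NT spread. The set took 8.21% to 10.9% of the counts of a library. In bulk RNA, a different mix of cells and a different amount of message per cell cannot be told apart.

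The mitochondrial sums were 3625, 4360, 4260, 4025 and 4407 CPM in NT 1 to NT 5. In LSD1i 1 to LSD1i 4 they were 3943, 4507, 3586 and 4240 CPM. The lowest library of each group was nearly equal, as was the highest, so the groups covered the same range. The means were 4135 ± 321 CPM (SD, n = 5) in NT and 4069 ± 396 CPM (SD, n = 4) in LSD1i, and the set took 0.349% to 0.459% of the counts.

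**Figure D2:**
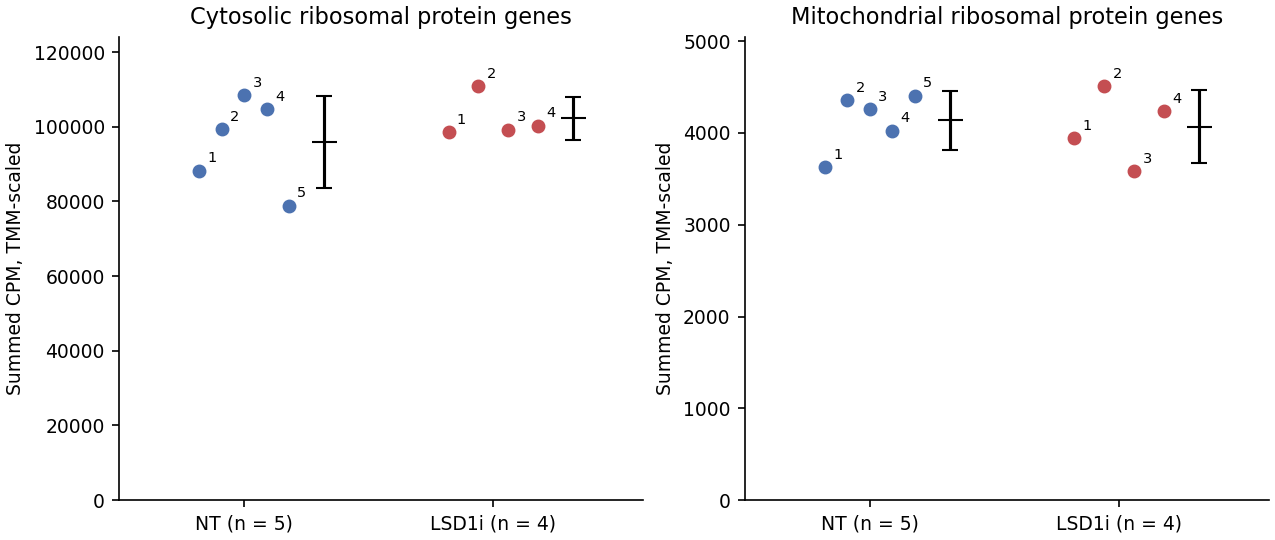
Summed TMM-scaled CPM (y axis, from 0) of the cytosolic (left) and mitochondrial (right) ribosomal protein genes in each library, numbered by replicate, with the mean and SD of the 5 NT and 4 LSD1i libraries beside the points. The groups overlap in both panels; NT 5 is the lowest library for the cytosolic set at 78842.5 CPM and the highest NT library for the mitochondrial set at 4407 CPM.

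NT 5 set the 2 ribosomes apart. It was the lowest NT library for 71 of 84 cytosolic genes and the highest NT library for 48 of 77 mitochondrial genes. The ratio of the cytosolic to the mitochondrial sum was 24.4, 22.8, 25.5, 26.03 and 17.9 in NT 1 to NT 5. It was 25.01, 24.6, 27.7 and 23.7 in LSD1i 1 to LSD1i 4. Without NT 5 the NT ratios lay between 22.8 and 26.03 and overlapped those of LSD1i. The other libraries that stood apart moved both sets or 1 of them: NT 1 was below a gene's mean for all but 2 cytosolic and 2 mitochondrial genes, LSD1i 2 was the highest LSD1i library for 74 cytosolic and 57 mitochondrial genes, and LSD1i 3 was the lowest LSD1i library for 63 mitochondrial and 31 cytosolic genes. NT 1 is also the library with the most Rn45s, and the part of Rn45s in its values was not tested. NT 5 and LSD1i 3 had the most genes with a count, at 17020 and 16730. The other libraries had 14039 to 15621, and the part of this difference was not tested.

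**Figure D3:**
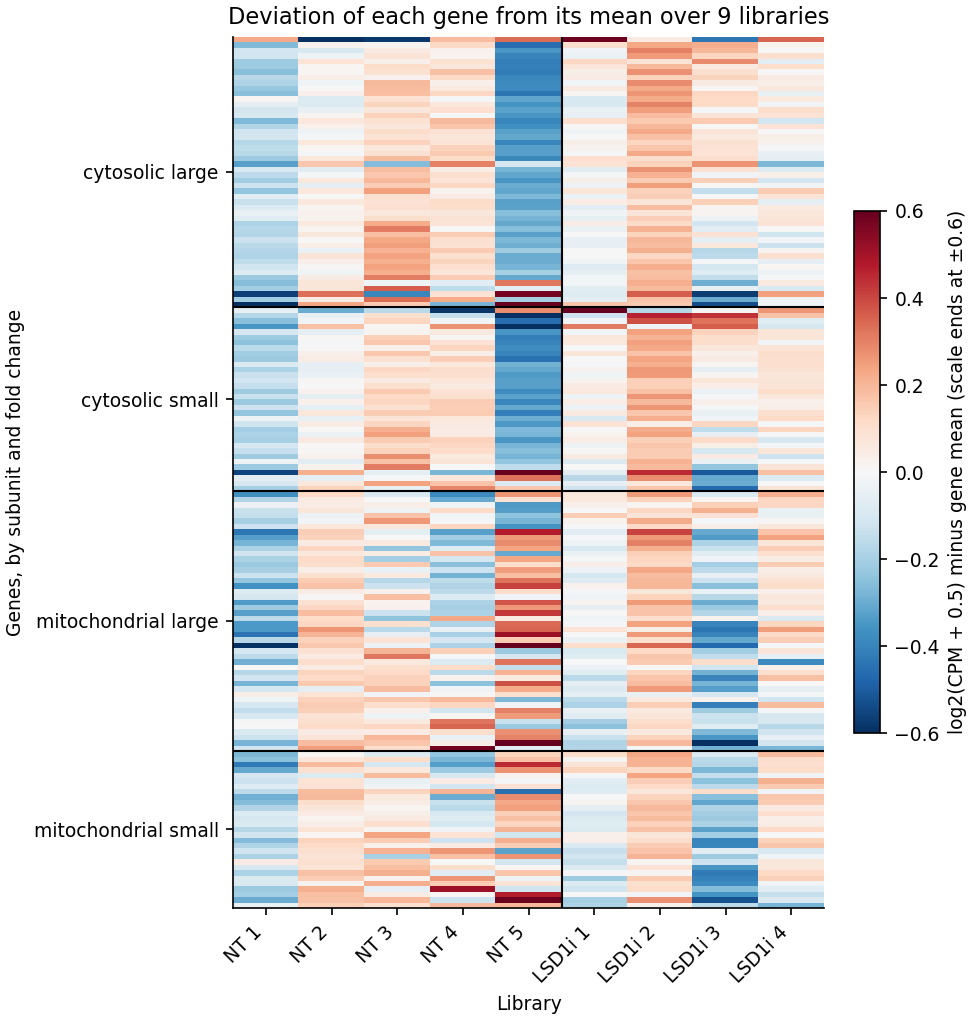
Each row is 1 tested ribosomal protein gene and each column 1 library; the colour is log2(CPM + 0.5) minus the gene's mean over the 9 libraries, from blue (lower) to red (higher), with the scale ending at ±0.6. Within each subunit, genes are ordered by the fold change of LSD1i over NT, and whole columns share a colour: NT 1 is low for both ribosomes, NT 5 is low for most cytosolic and high for most mitochondrial genes, LSD1i 2 is high for both, and LSD1i 3 is low for most mitochondrial genes.

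The small group medians rested on these libraries. Without NT 5 the median log2 fold change was 0.05 for the cytosolic and 0.02 for the mitochondrial set, and without LSD1i 3 it was 0.13 and 0.05. Without NT 1 the medians were 0.08 and -0.08, and without LSD1i 2 they were 0.07 and -0.07. The cytosolic median was highest, at 0.15, without NT 3, and 0.14 without NT 4. The cytosolic median stayed above 0 and above that of the mitochondrial set when any 1 library was left out, while the mitochondrial median turned its sign without NT 5 or LSD1i 3.

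The batches gave unequal values. In raw counts under the batch-corrected names, batch 1 (NT 1 and 2, LSD1i 1 and 2) had a median log2 fold change of 0.22 for cytosolic genes, with 84 of 84 above 0, and of 0.14 for mitochondrial genes, with 68 of 77 above 0. Batch 2 (NT 3 to 5, LSD1i 3 and 4) had a median of 0.07 for cytosolic genes, with 61 of 85 tested above 0, and of -0.10 for mitochondrial genes, with 17 of 77 above 0. Of the 77 mitochondrial genes, 52 were above 0 in batch 1 and below 0 in batch 2, 16 were above 0 in both, and 8 were below 0 in both. Of the 84 cytosolic genes, 61 were above 0 in both batches and 0 were below 0 in both. The raw share of the cytosolic set also differed by batch, at 6.24% to 8.96% of the counts in batch 1 and 10.1% to 12.003% in batch 2. The names that are crossed between the tables are those of batch 1, so its direction depends on which table is right. With the raw table's own names and no batch term, the medians over all 9 libraries were -0.11 and -0.14. That fit called 0 of all 11916 tested genes. Raw counts with the batch-corrected names and a batch term gave medians of 0.13 and 0.02, with 1.85% of tested genes called. The 2 fits differ both in the names and in the batch term, and the part of each was not tested.

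The balance of the subunits varied little in the cytosolic ribosome. The summed large subunit genes stood to the summed small subunit genes at ratios of 1.30 to 1.35 over the 9 libraries. The same ratio for the mitochondrial ribosome was 1.99 to 2.06 in NT and 2.05 to 2.23 in LSD1i, where LSD1i 3 was the highest. Single genes could depart from their set: Rpl34 stood at 9.72 CPM in NT 1 and 25.7 CPM in NT 5, while the cytosolic sum was lower in NT 5. The coefficient of variation of a gene over the 5 NT libraries had a median of 14.3% for cytosolic and 12.8% for mitochondrial genes, against 14.4% for all tested genes. Over the 4 LSD1i libraries it was 8.62%, 11.3% and 11.4%.

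The genes of each ribosome deviated together from library to library, and the part of their start-site sequences in this was not tested. Sequences at the transcription start sites are shown for a few genes described below, picked from those that hold the sequence marked. They come from RefSeq on GRCm38.p6, whose promoter table matched 135 of the 165 genes, 67 cytosolic and 68 mitochondrial. Each runs 5′ to 3′ from 60 bases before the start, with 20 bases from the start on. In the 5 cytosolic examples, the capitals mark a run of at least 8 pyrimidines that begins with C within 20 bases of the start. Rpl27a lies at chr7:109519135-109519214 (plus strand), Rpl28 at chr7:4792905-4792984 (plus strand), Rpl22l1 at chr3:28805448-28805527 (plus strand), Rps6 at chr4:86857348-86857427 (minus strand) and Rps27 at chr3:90213629-90213708 (minus strand).
Rpl27a: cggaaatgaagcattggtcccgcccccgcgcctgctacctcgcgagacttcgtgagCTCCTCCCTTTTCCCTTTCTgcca
Rpl28: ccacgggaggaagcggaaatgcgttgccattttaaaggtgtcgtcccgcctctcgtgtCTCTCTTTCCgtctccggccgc
Rpl22l1: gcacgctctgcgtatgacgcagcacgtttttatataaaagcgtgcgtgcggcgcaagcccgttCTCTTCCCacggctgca
Rps6: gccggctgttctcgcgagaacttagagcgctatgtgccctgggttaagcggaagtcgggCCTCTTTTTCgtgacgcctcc
Rps27: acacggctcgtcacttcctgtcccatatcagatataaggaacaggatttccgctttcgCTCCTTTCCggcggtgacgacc
Such a run was present in 30 of 67 cytosolic genes (44.8%), 11 of 68 mitochondrial genes (16.2%) and 14.5% of 27025 genes in the table.

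In the 3 mitochondrial examples, the capitals mark CCGGAAG or its reverse complement CTTCCGG, the core bound by ETS factors such as GABP. Mrpl52 lies at chr14:54426849-54426928 (plus strand), Mrpl57 at chr14:57826179-57826258 (plus strand) and Mrps12 at chr7:28741802-28741881 (minus strand).
Mrpl52: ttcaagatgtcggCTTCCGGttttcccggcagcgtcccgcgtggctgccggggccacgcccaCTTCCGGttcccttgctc
Mrpl57: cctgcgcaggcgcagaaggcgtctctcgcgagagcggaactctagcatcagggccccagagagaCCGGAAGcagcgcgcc
Mrps12: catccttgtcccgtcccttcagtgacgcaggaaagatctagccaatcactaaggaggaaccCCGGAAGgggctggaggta
Within the 300 bases around the start, on either strand, this motif was found in 25 of 68 mitochondrial genes (36.8%), 26 of 67 cytosolic genes (38.8%) and 9.93% of all genes in the table. The YY1 motif AAGATGGC was found in 12 mitochondrial (17.6%), 6 cytosolic (8.96%) and 3.19% of all genes. The E-box CACGTG, to which Myc and Max bind, was in 7.35% of mitochondrial, 8.96% of cytosolic and 8.09% of all genes. The palindromic NRF1 motif was in 3 mitochondrial, 2 cytosolic and 1.07% of all genes. A pyrimidine run can overlap the CTTCC of an ETS match. The matches describe letters in these windows and are not binding sites. The shares of all genes cover every gene in the promoter table, tested or not, and none was taken over tested genes alone.

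Among small subunit genes of the cytosolic ribosome, Rps29, which encodes a zinc-binding protein of the subunit's head, had the smallest p. It stood at 267, 292, 322, 273 and 187 CPM in NT 1 to NT 5 and at 276, 415, 407 and 339 CPM in LSD1i 1 to LSD1i 4. LSD1i 1 lay within the NT range and the other LSD1i libraries lay above it. The log2 fold change was 0.42 ± 0.16 (SE, 95% interval 0.07 to 0.77), with an adjusted p of 0.231 by edgeR's quasi-likelihood test. Rps28 followed with 0.28 ± 0.14 (adjusted p 0.387) and Rps3a1 with 0.19 ± 0.10 (adjusted p 0.402). Both have NT 5 as their lowest library, at 125 CPM for Rps28 and 816 CPM for Rps3a1.

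Rps6, the substrate of the S6 kinases downstream of mTOR, stood at 756, 771, 822, 839 and 660 CPM in NT and at 798, 929, 812 and 861 CPM in LSD1i. Its log2 fold change was 0.14 ± 0.09. Rps19, a gene mutated in Diamond-Blackfan anaemia, had 0.19 ± 0.11, Rps4x had 0.16 ± 0.11, and Rpsa, also known as the laminin receptor, 0.14 ± 0.09. All 4 intervals include 0. Only 3 of 34 small subunit genes were below 0: Rps2 at -0.13 ± 0.11, Rps27 at -0.12 ± 0.15 and Rps19bp1 at -0.14 ± 0.14. Rps19bp1 is included by its symbol, but encodes a protein that binds Rps19 and not a ribosomal protein.

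Among large subunit genes, Rpl5 had the smallest p. Together with Rpl11 it carries the 5S ribosomal RNA into the large subunit, and both bind Mdm2 when ribosome assembly stalls, which stabilises p53. Rpl5 stood at 732, 745, 820, 806 and 622 CPM in NT 1 to NT 5 and at 782, 977, 910 and 794 CPM in LSD1i 1 to LSD1i 4. LSD1i 2 and LSD1i 3 lay above the NT range, and the other LSD1i libraries within it. The log2 fold change was 0.22 ± 0.10 (adjusted p 0.373), and that of Rpl11 0.14 ± 0.10. Rpl37a had 0.24 ± 0.12 and Rpl9 0.19 ± 0.11. Of the genes whose start sites are shown, Rpl28 had 0.18 ± 0.12 and Rpl27a 0.09 ± 0.11. Of Rpl5, 93.8% of the transcript's 50-base windows also occur in other genes, and 14 of the 15 genes that share a window are pseudogenes. Its count may therefore depend on how the authors treated reads with several matches, a setting that the labels do not state.

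**Figure D4:**
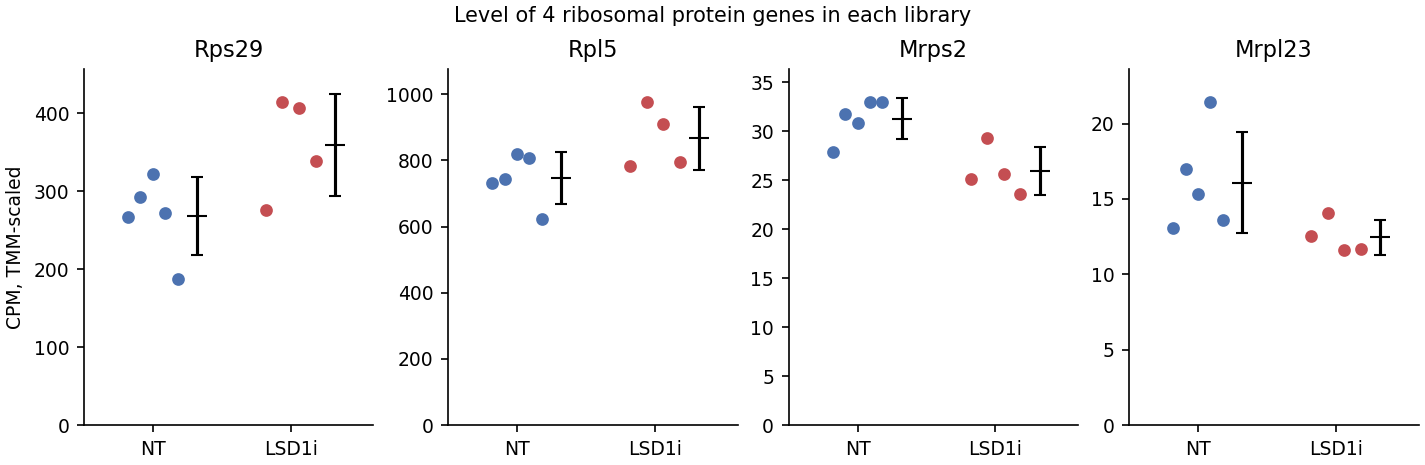
TMM-scaled CPM (y axis, from 0) in each library for 4 genes, with points for the 5 NT and 4 LSD1i libraries and the mean and SD beside them. The groups overlap in each panel: Rps29 (means 268 and 359 CPM) and Rpl5 (745 and 866) have higher LSD1i means, and Mrps2 (31.3 and 25.9) and Mrpl23 (16.1 and 12.5) lower ones.

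The stalk proteins Rplp0, Rplp1 and Rplp2, which recruit the elongation factors to the ribosome, had log2 fold changes of 0.11, 0.09 and 0.08, each with a standard error of 0.12 or less. Rpl4 and Rplp0 had the highest CPM of all the genes. Rpl4 stood at 4394 ± 390 CPM (SD, n = 5) in NT and 4580 ± 146 CPM (SD, n = 4) in LSD1i. Rplp0 stood at 3738 ± 542 and 4047 ± 139 CPM. Rpl13, at -0.10 ± 0.13, and Rpl34, at -0.16 ± 0.25, were among the 6 of 50 large subunit genes below 0. The lowest libraries for Rpl13 were LSD1i 3 at 1132 CPM and NT 1 at 1206 CPM, from different groups.

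Several genes have a paralog whose product can take the same place in the ribosome. Rpl22, which binds RNA and is needed for the development of most T cells, stood at 668, 692, 820, 743 and 614 CPM in NT and at 680, 796, 670 and 688 CPM in LSD1i. Its log2 fold change was 0.00 ± 0.10. Its paralog Rpl22l1 stood at 229, 274, 291, 308 and 204 CPM in NT and at 280, 331, 292 and 272 CPM in LSD1i, with a log2 fold change of 0.17 ± 0.12. In both genes the groups overlapped and NT 5 was the lowest library.

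Rps27l, a p53 target, stood at 83.2, 142, 118, 101 and 189 CPM in NT and at 117, 167, 86.3 and 138 CPM in LSD1i. NT 5 was the highest library and NT 1 the lowest, with LSD1i 3 next to it, whereas NT 5 was the lowest NT library for most cytosolic genes. NT 1 and LSD1i 3 were also the lowest 2 libraries for the mitochondrial sum. Its log2 fold change of 0.01 has a standard error of 0.24. Its paralog Rps27 was listed at only 5.03 to 8.05 CPM over the 9 libraries. Rpl36a stood at 449 ± 53.4 CPM (SD, n = 5) in NT and 479 ± 56.0 CPM (SD, n = 4) in LSD1i, and Rpl36al at 220 ± 36.6 and 217 ± 20.5 CPM.

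Some paralogs were near or at 0. Rpl10l, expressed in testis, had 1 read in NT 3 and 0 in the others. Rpl3l, expressed in muscle, had at most 4 reads in a library, and Rps27rt had 0 in all 9. Rpl39l, expressed mainly in testis, passed the filter at 0.725 to 2.54 CPM, with a log2 fold change of 0.28 ± 0.35. The general forms Rpl10, Rpl3 and Rpl39 stood at 888 to 1319, 1620 to 2330 and 521 to 700.1 CPM. Rps4l, at 1.85 to 5.30 CPM, had a log2 fold change of 0.43 ± 0.24 (adjusted p 0.481), where LSD1i 1 and NT 5 were the highest libraries.

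Some low levels belong to genes whose sequence is shared with copies elsewhere. A median of 53.6% of the 50-base windows of a cytosolic gene's transcript also occurred in another gene, and a median of 8 pseudogenes shared at least 1 window. For mitochondrial genes these medians were 3% and 0. Rps27 (98.6% of windows shared) stood at 18.5 CPM per kb of transcript, Rpl30 (76.4%) and Rpl34 (50.6%) at 8.23 and 32.9, and Rpl26 (71.3%) at 0.433, against a median of 1113 CPM per kb over the cytosolic set. Rps27rt, listed at 0 in every library, had 91.1% of its windows shared. A high share did not go with a low level in every gene: Rpl10 (92.1%) stood at 1445 and Rps12 (90.1%) at 2983 CPM per kb. The part of shared sequence in the low levels was not tested.

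**Figure D5:**
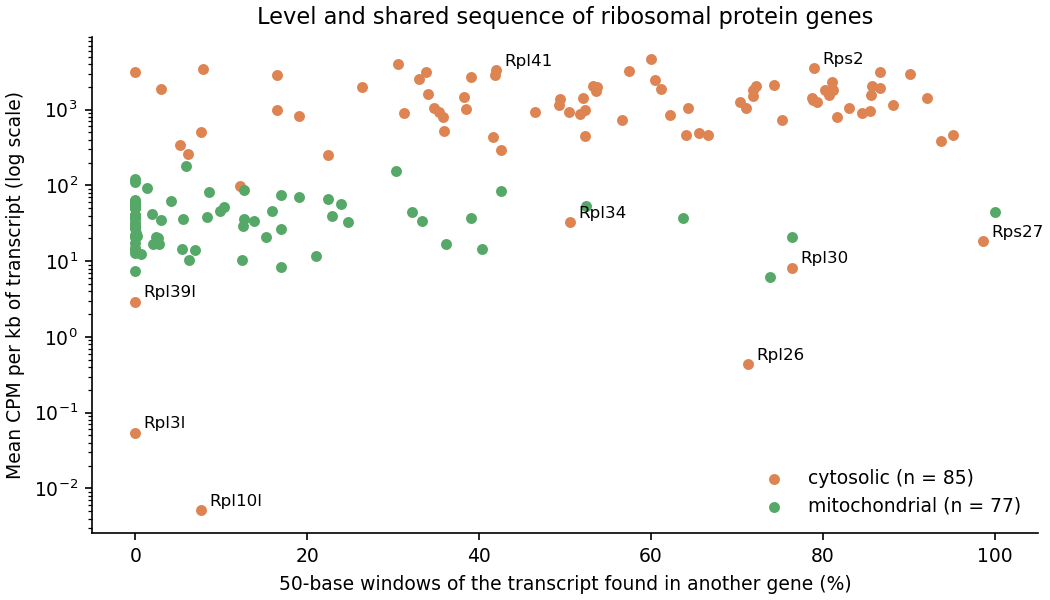
Share of a transcript's 50-base windows that also occur in another gene (x axis, %) against the mean CPM per kb of transcript (y axis, log scale), 1 point a gene, for the genes with a matched transcript and a mean above 0. Cytosolic genes (orange) spread over the whole width at a median of 1113 CPM per kb, with Rps27, Rpl30, Rpl34 and Rpl26 far below it, and mitochondrial genes (green) have a median of 36.3, most of them at low shares, with Mrpl53 at 100% and Mrpl23 at 76.4% far to the right.

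In the mitochondrial small subunit, Mrps2 had the smallest p of all 161 genes. It encodes the relative of a conserved bacterial small subunit protein. Mrps2 stood at 27.9, 31.8, 30.8, 33.0 and 33.0 CPM in NT 1 to NT 5 and at 25.2, 29.4, 25.6 and 23.6 CPM in LSD1i 1 to LSD1i 4. Of the LSD1i libraries, only LSD1i 2 reached the NT range. The log2 fold change was -0.27 ± 0.09 (95% interval -0.47 to -0.07), with an adjusted p of 0.175 by edgeR. In raw counts within batches it was -0.02 in batch 1 and -0.35 in batch 2. Mrps10 had -0.24 ± 0.14 and Mrps30 -0.17 ± 0.10, while Mrps21 had 0.20 ± 0.11, Mrps28 0.07 ± 0.12 and Mrps12, the relative of the bacterial decoding-centre protein that streptomycin resistance mutations affect, 0.07 ± 0.17. Mrps33 and Mrps36, whose product is now known as a part of the oxoglutarate dehydrogenase complex, had low levels, at 10.2 to 15.5 and 10.7 to 13.98 CPM.

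In the mitochondrial large subunit, Mrpl23 stood at 13.1, 17.0, 15.3, 21.5 and 13.6 CPM in NT and at 12.5, 14.1, 11.6 and 11.7 CPM in LSD1i. LSD1i 2 alone lay within the NT range and the other LSD1i libraries below it, while NT 4 was far above the rest. The log2 fold change was -0.36 ± 0.15 (adjusted p 0.277 by edgeR), with -0.06 in batch 1 and -0.46 in batch 2. Of its transcript's windows, 76.4% also occur in a pseudogene, so the caution given for Rpl5 holds here too. Mrpl57 had -0.32 ± 0.18, where NT 5 was the highest library at 91.4 CPM and LSD1i 3 the lowest at 39.6 CPM. Mrpl52 had -0.17 ± 0.10.

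Mrpl45, which tethers the mitochondrial ribosome to the inner membrane, was the mitochondrial gene with the highest CPM. It stood at 149, 158, 157, 150.2 and 121 CPM in NT and at 156, 154, 169 and 167 CPM in LSD1i, so NT 5 was its lowest library, as it was among NT for 71 of 84 cytosolic genes. Mrpl9, at 118, 136, 136, 142 and 101 CPM in NT and 130, 140, 133 and 136 CPM in LSD1i, had the same lowest library. Their log2 fold changes were 0.14 ± 0.09 and 0.09 ± 0.10. Mrpl12, which also binds the mitochondrial RNA polymerase, stood at 52.3, 80.01, 59.4, 64.6 and 84.8 CPM in NT and at 70.3, 68.2, 49.1 and 79.3 CPM in LSD1i, with NT 5 the highest and a log2 fold change of -0.03 ± 0.17. Mrpl4 and Mrpl18 had 0.15 ± 0.09 and 0.19 ± 0.14.

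Genes that build or use ribosomes were counted beside the ribosomal proteins, and 0 genes of these lists were called by edgeR; DESeq2 called 1, Brix1. Of 44 tested genes of the small subunit processome and small subunit assembly, 6 were above 0, with a median log2 fold change of -0.15 and 4 at an unadjusted p under 0.05. Over all tested genes 45.6% were above 0 and 14.6% had an unadjusted p under 0.05. Of 44 tested genes of large subunit assembly, 6 were above 0, with a median of -0.14 and 5 at an unadjusted p under 0.05. Of 22 nucleolar and RNA modification factors, 5 were above 0, with a median of -0.14 and 4 under 0.05. These 3 medians were below 0 where that of the cytosolic ribosomal protein genes was above it, but not in both batches: in raw counts they were 0.05, 0.06 and 0.10 in batch 1 and -0.20, -0.19 and -0.19 in batch 2. Without LSD1i 3 they were -0.06, -0.06 and -0.07, without NT 5 they were -0.12, -0.09 and -0.07, and without LSD1i 2 all 3 were between -0.20 and -0.19.

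Brix1, a factor of early large subunit assembly, stood at 71.4, 72.8, 72.5, 69.9 and 77.0 CPM in NT and at 59.7, 65.8, 58.2 and 61.7 CPM in LSD1i. The groups did not overlap, as for 3 of the 44 large subunit assembly genes, 1 of the 44 of the processome and small subunit assembly, and 7.86% of all tested genes. The log2 fold change was -0.25 ± 0.07 (edgeR adjusted p 0.0997). Nol10 of the processome had -0.32 ± 0.11 (adjusted p 0.165), with NT from 35.2 to 49.0 and LSD1i from 29.8 to 34.2 CPM. The exosome subunit Exosc8 had 0.19 ± 0.07 (adjusted p 0.197).

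RNA polymerase I and its factors had 8 of 14 genes above 0 and a median of 0.02, with 1 under an unadjusted p of 0.05. Translation initiation factors had 12 of 38 above 0 and a median of -0.04, and elongation and release factors 7 of 12 and 0.03, with 0 under an unadjusted p of 0.05 in both lists and 0 called by edgeR. Eef1a1, the elongation factor that brings tRNA to the ribosome and whose message also starts with pyrimidines, had 0.19 ± 0.12, with NT 5 its lowest library. Of the regulators, 7 of 22 were above 0, with a median of -0.08. Myc, which drives ribosome genes in dividing lymphocytes, had -0.23 ± 0.12 (adjusted p 0.416), and its partner Max 0.40 ± 0.12 (adjusted p 0.12), which edgeR called when NT 1 was left out. Mitoribosome assembly factors had 6 of 23 above 0 (26.1%) and a median of -0.03, and mitochondrial translation factors 8 of 34 (23.5%) and -0.05. Over all tested genes 45.6% were above 0 and the median was -0.02. Noa1, a GTPase of mitoribosome assembly, had -0.37 ± 0.12 (adjusted p 0.154).

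Some ribosomal proteins have symbols outside the rule and were read beside the sets. Fau, which encodes a small subunit protein fused to a ubiquitin-like one, stood at 738, 814, 826, 830.1 and 622 CPM in NT and at 888, 859, 917 and 855 CPM in LSD1i, with a log2 fold change of 0.20 ± 0.10 (edgeR adjusted p 0.37), and its groups did not overlap. Gnb2l1, the scaffold also known as Rack1, had 0.07 ± 0.12. Of 7 tested mitochondrial ones, 1 of which, Mrpl57, is also counted above, 2 were above 0, with Dap3 at 0.12 ± 0.07 and Ptcd3 at -0.20 ± 0.11.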

How the data were processed

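RNA of 5 NT and 4 LSD1i samples of mouse CD8+ T cells was made into libraries with the SMARTer mRNA kit, per the labels' protocols. Alignment and counting involved STAR, featureCounts and the build mm9, and edgeR is also named, per the submitters' processing notes. Versions, strand and the handling of reads with several matches are not given in the sources, so genes with near-identical copies and overlapping genes are uncertain. The authors deposited raw counts per gene and estimated counts after a batch correction whose method is not given. A further deposited table gives, per gene, p-values, a score (the F statistic) and log2 values of fold change and level.

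Batch-corrected counts, rounded (they were whole already), were fitted by group with edgeR 4.0.16 (R 4.3.3): the low-count filter by group (minimum count 10, minimum total 15), TMM, the quasi-likelihood test and Benjamini-Hochberg adjustment at 0.05 over all tested genes. A standard error is the absolute log2 fold change without shrinkage, divided by the square root of F. Deviations shown as colours used log2(CPM + 0.5). For counts of genes above or below their mean, 0.5 was added to the counts before scaling. Correlations between libraries used log2 CPM with another constant. The test was tried on simulated data with known changes. Alternatives used raw counts, a batch term, a replicate block, DESeq2 1.42.0, other scalings, no filter and each library left out. Transcript lengths and shared 50-base windows came from GENCODE transcripts of another build than mm9, so they describe sequence only, and 163 of 165 genes matched. A window was counted as shared where it occurred, on either strand, in any transcript of another gene. Genes that overlap at the same place are included, so a shared window need not be a copy elsewhere.

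Named genes were the 3 smallest p in each direction per subunit, the 2 highest and lowest in level per set, genes named for known biology, and up to 3 smallest p per list. Rpl30, Rpl26, Rps12, Rpl27a, Rpl28 and Mrpl53 were named after their values or sequences were seen. The members and lists were chosen with earlier results of these data known. The labels do not state whether a replicate number marks a shared animal or culture, and the main fit did not pair libraries by number. An item of the lists is not reported here.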

Additional observations from a re-analysis of the deposited data

Results flagged for a closer look

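In a few groups 1 library lay far from the others relative to the group's range. Chance alone gives such a value in about 1 in 20 groups. The threshold was not adjusted for the number of groups looked at, so some of these values can arise by chance. The summed level of the cytosolic ribosomal protein genes was 110825 CPM in LSD1i 2, with the other LSD1i libraries between 98621.6 and 100331 CPM. In the same library Rpl22 was at 796 CPM, with the others between 670 and 688, and Rpl36al at 248 CPM, with the others between 204 and 210.1. Mrps33 was at 10.5 CPM in LSD1i 3, with the others between 13.8 and 14.1. Mrpl45 was at 121 CPM in NT 5, with the other NT libraries between 149 and 158. Rpl10l was at 0.0474 CPM in NT 3, which is 1 read, and at 0 in the other NT libraries.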

How the results depend on the processing

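The count of called genes was 0 in both sets under all 17 alternatives, which included DESeq2, raw counts, no low-count filter, no TMM and each library left out. With raw counts as named in the raw table, 0 of all 11916 tested genes were called, so that 0 is not particular to the sets. The other alternatives each called genes outside the sets. The median log2 fold change of the cytosolic set was -0.11 in raw counts as named in the raw table, against 0.10. That alternative changes both the names and the counts and has no batch term, and the cause was not tested. With 1 library left out, this median ranged from 0.05 to 0.15, that of the mitochondrial set from -0.08 to 0.05, and the difference between the set means from 0.05 to 0.17. With a replicate block the medians were 0.05 and 0.01 and the difference 0.06. Deviations of libraries with the same number correlated at -0.15, 0.47, 0.12 and -0.38 over 9035 genes. Between libraries with different numbers the correlations ran from -0.79 to 0.80. These values cannot settle whether a number marks a shared animal or culture, as some names are crossed between the deposited sets of counts. The 48 named ribosomal protein genes that were tested had no call under any alternative. Over these 48 genes and 17 alternatives together, 74 fold changes had the opposite sign. For most of the genes, no more than 1 of the 17 alternatives turned the sign. Among genes of the other lists, DESeq2 called Brix1, and edgeR called Max without NT 1.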
